A study of Homo sapiens with 21 samples.

Results

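The CELF family is a set of 6 RNA-binding proteins, CELF1 to CELF6, and all 6 genes were present among the 60728 gene identifiers of the deposited table. They were taken by gene symbol, but the family itself was chosen by the measured values of CELF2. That gene was among those with the largest decreases from Control. The cells were SK-N-BE(2), an established MYCN-amplified neuroblastoma line, transduced with lentiviral particles that served as Control or carried shRNAs (short hairpin RNAs that direct degradation of a chosen mRNA) against ARID1A or ARID1B, and RNA was taken 72 h later. ARID1A and ARID1B are alternative structural subunits of the BAF form of the mSWI/SNF chromatin remodelling complex. Poly(A) RNA was sequenced from 21 libraries, 3 for each of 7 labels. The labels are Control, shARID1A.2 and shARID1A.4, shARID1B.2 and shARID1B.3, and the combinations shARID1A/B.2.3 and shARID1A/B.4.2. Each label is a transduced culture of 1 cell line, the triplicates are described as biological, and the study describes its Control for these libraries as non-silencing.

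CELF proteins bind GU-rich stretches of RNA through RNA recognition motifs. In the nucleus they promote or repress inclusion of alternative exons, often in opposition to the muscleblind-like (MBNL) proteins, and in the cytoplasm they affect translation and mRNA decay. CELF1 and CELF2 are broadly expressed and form 1 branch of the family, whereas CELF3, CELF4, CELF5 and CELF6 form the other branch and are found mostly in the nervous system.

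ARID1A and ARID1B transcripts did not follow the labels, which are therefore used here only as names. ARID1A had a mean normalised read count of 6312 ± 191 (SD, n = 3) in Control. The normalised read count is the number of reads of a gene in a library divided by 1 factor for that library's depth. ARID1A was 2146 ± 32.1 and 2243 ± 74.8 in libraries labelled shARID1A.2 and shARID1A.4, 1920 ± 40.2 and 2479 ± 28.5 in those labelled shARID1B.2 and shARID1B.3, and 5659 ± 130 and 5440 ± 130 in those labelled shARID1A/B.2.3 and shARID1A/B.4.2. ARID1B was 5796 ± 7.47 in Control, 2241 ± 15.3 and 3100 ± 31.5 under the shARID1A labels, 5004 ± 78.9 and 6091 ± 79.2 under the shARID1B labels, and 2599 ± 55.5 and 1907 ± 41.3 under the shARID1A/B labels. Both transcripts were thus low in libraries labelled shARID1A, ARID1A was the low one in those labelled shARID1B, where ARID1B differed from Control by -0.21 and 0.07 on the log2 scale, and ARID1B was the low one in those labelled shARID1A/B, where ARID1A differed from Control by -0.16 and -0.21 on the log2 scale. Every direction below belongs to the label as written.

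**Figure D1:**
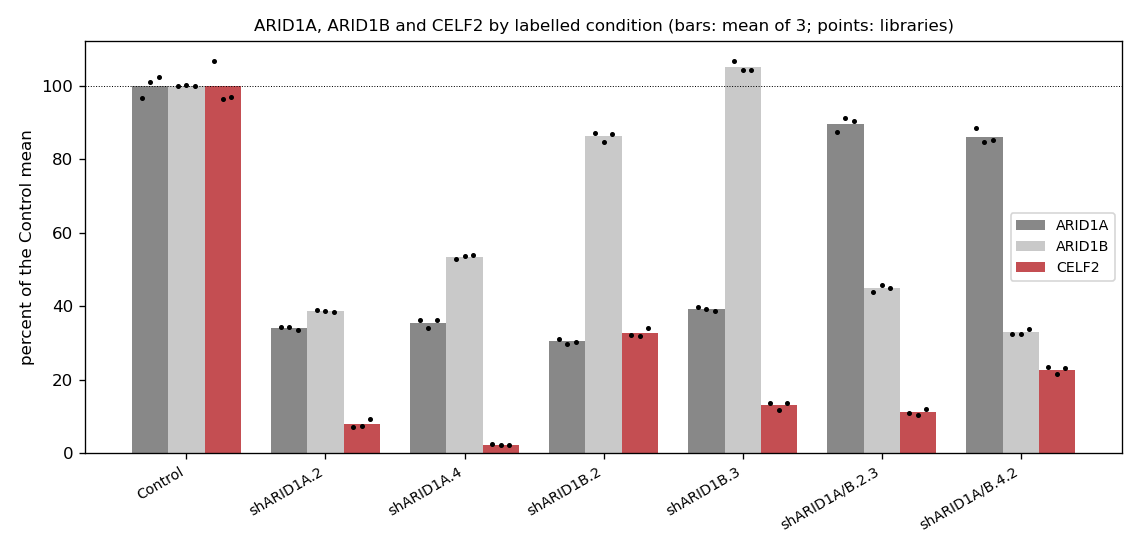
Normalised read counts of ARID1A, ARID1B and CELF2 as a percentage of the Control mean, by labelled condition on the x axis, with bars for the mean of 3 libraries and points for the libraries. ARID1A bars are low under the shARID1A and shARID1B labels, ARID1B bars under the shARID1A and shARID1A/B labels, and CELF2 bars under all 6, from 2.31% in shARID1A.4 to 32.7% in shARID1B.2.

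Libraries held 27954334 to 41077638 reads, with a median of 34973565, so depth differed by at most 1.47-fold. The 8 adrenergic neuroblastoma markers reported here, among them MYCN with a Control mean of 122676, were detected under every label. Their summed level was 163344 to 167552 in Control and 113339 to 467347 elsewhere. MYCN made up most of that sum, with means from 79339 under shARID1B.2 to 418088 under shARID1A.4, so the sum mainly follows MYCN. Among these 8 markers the numbers higher were 2, 4, 2, 3, 5 and 2 in the order in which the labels were listed. The numbers lower were 5, 3, 5, 5, 3 and 5. Of 9 mesenchymal-type markers 8 were tested, and 6, 6, 5, 7, 6 and 6 of them were lower and 2, 2, 0, 0, 2 and 1 higher in the order in which the labels were listed. TWIST1, FN1 and NOTCH2 fell under all 6, although TWIST1 lost its call under shARID1B.2 in 4 of 32 alternative settings. A fall under all 6 was seen in 7.54% of all tested genes. Under each label, 32% to 38.2% of them were lower and 31.6% to 37.9% higher. The summed level of the list was 68293 to 70814 in Control and 42652 to 76767 elsewhere, and the part of either list in the CELF results was not tested. Of 60728 identifiers, 18584 had enough reads to be tested, including all 6 CELF genes. Between 63.9% and 76.1% of them differed from Control at an adjusted p under 0.05 under each label, so a call on its own sets no gene apart here. In bulk samples, fewer cells of a type and less RNA per cell cannot be told apart.

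In Control cells the family was dominated by CELF1. Per kilobase of annotated exon, a scale that allows genes of different lengths to be compared, CELF1 stood at 699.8 normalised reads, CELF3 at 201, CELF2 at 67.2, CELF5 at 15.5, CELF6 at 12.3 and CELF4 at 11.8. CELF1 was above 87.6% of the 18327 tested genes with an annotated length on this scale, CELF3 above 62.7%, CELF2 above 42.8%, and the other three above 21.5% to 24.7%. SK-N-BE(2) cells therefore held RNA of both branches, with CELF4, CELF5 and CELF6 at 31 to 92 reads per Control library.

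Sequence upstream of the transcription starts of CELF2, CELF3 and CELF5 is shown because these genes had the changes of greatest size or of most constant direction, and because the starts differ in CpG content. RefSeq lists 10 start sites for CELF2 on the GRCh38.p14 assembly, whose windows span 702845 bases, and 1 each for CELF3 and CELF5. Each line gives the 250 bases before 1 start, 5′ to 3′ on the gene's strand, with every CG dinucleotide in capitals. The regions are chr10:11018248-11018497 and chr10:11164845-11165094 on the plus strand for CELF2, chr1:151716804-151717053 on the minus strand for CELF3, and chr19:3224411-3224660 on the plus strand for CELF5.
CELF2, start with most CG: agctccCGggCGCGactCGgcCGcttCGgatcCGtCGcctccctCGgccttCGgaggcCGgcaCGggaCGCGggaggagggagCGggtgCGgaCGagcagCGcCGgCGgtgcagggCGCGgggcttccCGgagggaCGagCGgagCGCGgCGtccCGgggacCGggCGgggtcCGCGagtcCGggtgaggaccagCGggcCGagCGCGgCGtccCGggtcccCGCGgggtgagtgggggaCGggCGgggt
CELF2, last start listed: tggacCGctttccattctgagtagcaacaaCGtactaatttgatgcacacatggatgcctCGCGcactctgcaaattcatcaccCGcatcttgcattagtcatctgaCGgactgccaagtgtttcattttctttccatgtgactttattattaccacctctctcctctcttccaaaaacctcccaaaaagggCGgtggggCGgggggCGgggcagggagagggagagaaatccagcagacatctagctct
CELF3: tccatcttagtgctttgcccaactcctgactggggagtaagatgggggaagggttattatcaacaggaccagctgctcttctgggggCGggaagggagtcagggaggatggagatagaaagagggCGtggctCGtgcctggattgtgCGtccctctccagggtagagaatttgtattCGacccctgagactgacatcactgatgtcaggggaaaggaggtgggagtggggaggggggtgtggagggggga
CELF5: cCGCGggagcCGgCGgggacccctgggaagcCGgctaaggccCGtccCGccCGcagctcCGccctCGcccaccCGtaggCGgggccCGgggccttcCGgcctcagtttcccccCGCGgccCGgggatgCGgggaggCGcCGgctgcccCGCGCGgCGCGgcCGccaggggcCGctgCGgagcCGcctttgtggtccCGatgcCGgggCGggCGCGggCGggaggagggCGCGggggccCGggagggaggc
Over the 35116 RefSeq start windows the median was 11 CG, with quartiles of 3 and 23. The first CELF2 window holds 44 CG, more than 99.2% of windows, and the last one holds 9. The CELF3 window holds 5 and the CELF5 window 38. Across all 10 CELF2 windows the number ran from 4 to 44. The deposited values are sums per gene, so which of these starts was used, and which protein isoform was made, was not measured.

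CELF2, which regulates splicing and mRNA stability in brain, heart and lymphocytes, was lower than Control in all 18 libraries with an ARID1 shRNA. Because it was chosen for this decrease, the comparison with Control is a description with no test. Its normalised read counts in Control were 788, 711 and 715. Under the shARID1A.2 label they were 51.5, 54.6 and 69.0, and under shARID1A.4 they were 18.4, 16.6 and 16.0. The 3 libraries labelled shARID1A.4 are the lowest of the 21 and held only 14 to 19 CELF2 reads each. Values of 236, 236 and 252 were measured under shARID1B.2, and 102, 87.4 and 101 under shARID1B.3. The combined labels gave 81.0, 76.1 and 88.5 for shARID1A/B.2.3, and 172, 159.9 and 170.5 for shARID1A/B.4.2. No library with an ARID1 hairpin reached the lowest Control value, and the highest of them were those labelled shARID1B.2.

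As a share of the Control mean, CELF2 stood at 7.91% and 2.31% under shARID1A.2 and shARID1A.4, 32.7% and 13.1% under shARID1B.2 and shARID1B.3, and 11.1% and 22.7% under shARID1A/B.2.3 and shARID1A/B.4.2. On the log2 scale, computed here as log2 of the normalised read count plus 1, the differences were -3.65, -5.36, -1.61, -2.92, -3.16 and -2.13 in the same order, each with a standard error of 0.11. Ordered from high to low, the levels ran Control, shARID1B.2, shARID1A/B.4.2, shARID1B.3, shARID1A/B.2.3, shARID1A.2 and shARID1A.4. Neighbours in this order had ranges that did not overlap, except shARID1B.3 and shARID1A/B.2.3. Under shARID1A.4 only 1 of the 18584 tested genes had a more negative difference than CELF2, against 41 under shARID1A.2, 325 under shARID1B.2 and 34 under shARID1B.3. By its mean difference under the combined labels, CELF2 ranked 7 among 13675 genes with a mean of at least 50. It lay between SCGN at -2.84 and IFITM2 at -2.61.

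The size of the decrease was compared between labels, without Control. The libraries labelled shARID1A and shARID1B may have entered the choice of CELF2, so the p-values here may not be free of that choice. CELF2 was lower under the 2 shARID1A labels, where both ARID1 transcripts were low, than under the 2 shARID1B labels, where ARID1A was the lower one. That difference was -2.24 on the log2 scale (95% interval -2.40 to -2.08, adjusted p = 4.69e-18 by limma), and the 6 libraries of one label did not overlap the 6 of the other. Of all tested genes, 67.3% differed between these labels, and 2.94% were lower by more than 1 on the log2 scale as CELF2 was. The conditions of 1 label also differed. CELF2 was 1.71 higher (1.48 to 1.94, adjusted p = 5.25e-13) under shARID1A.2 than under shARID1A.4, a contrast in which 75.8% of genes were called. It was 1.31 higher (1.08 to 1.54, adjusted p = 1.35e-10) under shARID1B.2 than under shARID1B.3, where 66% were called. The differences between conditions of the same label were therefore of the same order as the difference between the labels.

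PTPRC, the leukocyte antigen CD45 and 1 of 4 blood and endothelial markers examined, fell under all 6 labels, as did 7.54% of all tested genes. It ran from 399 to 426 in Control and from 57.3 to 309 elsewhere. Its log2 differences were -1.83, -2.70, -1.89, -0.44, -2.75 and -1.39 in the order in which the labels were listed. The sizes did not follow those of CELF2 throughout, since PTPRC had its smallest difference under shARID1B.3, where CELF2 differed by -2.92, and CELF2 had its own smallest, -1.61, under shARID1B.2. The other defining markers were at or near 0, with HBB and PECAM1 at 0 in every Control library and no more than 2.81 in any library, and CDH5 between 0 and 13.1. The summed level of the list was 408.5 to 432 in Control, 103 to 127 under shARID1A.2, 60.2 to 65.4 under shARID1A.4, 106 to 119 under shARID1B.2, 299 to 313 under shARID1B.3, 59.4 to 63.2 under shARID1A/B.2.3 and 151 to 188 under shARID1A/B.4.2. Its part in the CELF2 result was not tested.

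**Figure D2:**
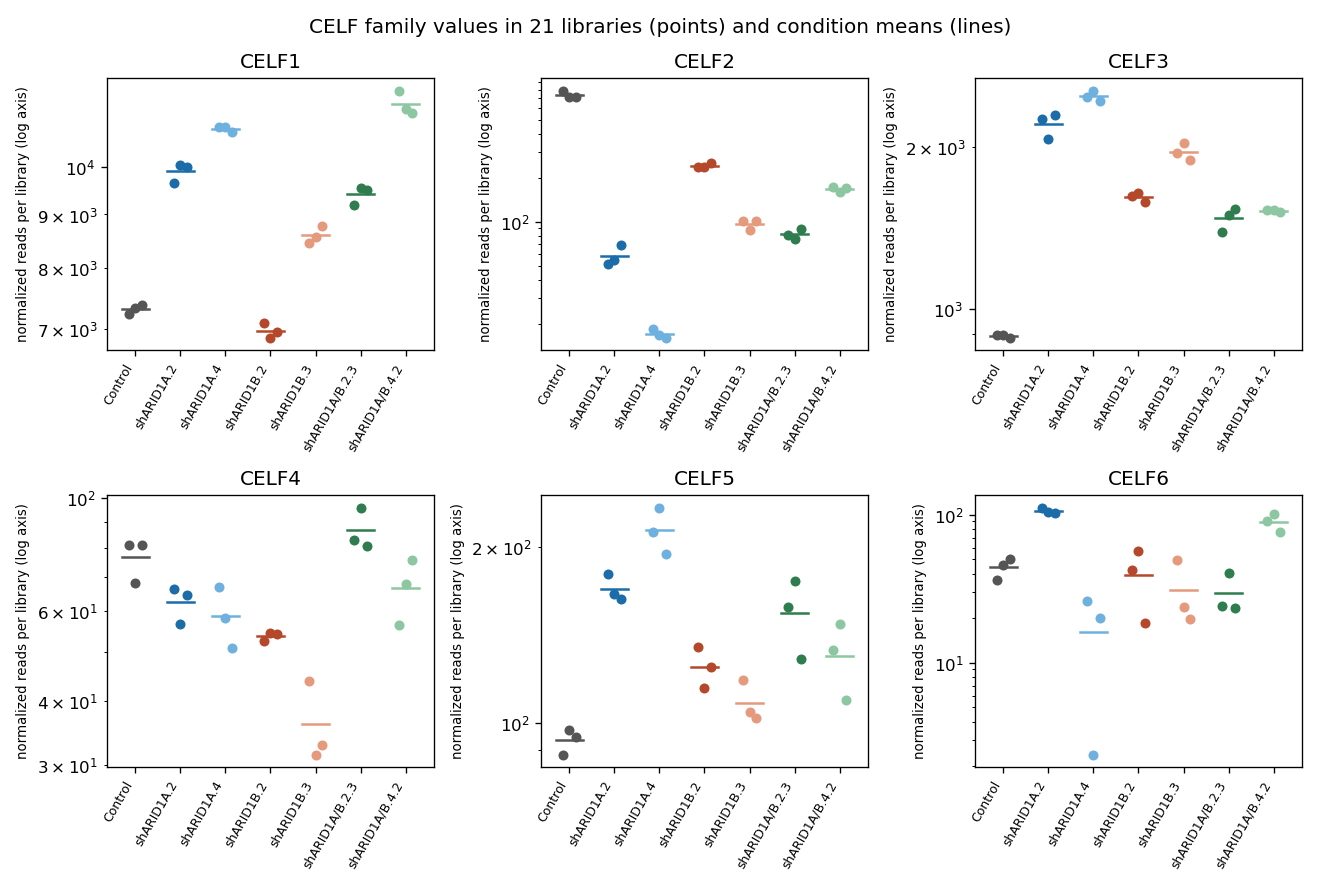
Normalised read counts of the 6 CELF genes in each of 21 libraries on log y axes that differ between panels, with labelled conditions on the x axis, points for libraries and lines for means. All CELF2 points with an ARID1 shRNA lie below Control, all CELF3 and CELF5 points lie above it, and CELF6 points scatter most, with 1 library of shARID1A.4 at 2.38.

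Whether the paralogs moved was asked of the other 5 genes, each under 6 labels, which makes 30 tests. Of these, 22 passed at an adjusted p under 0.05, 17 of them higher than Control and 5 lower. Under each label, 31.6% to 37.9% of all tested genes were higher and 32% to 38.2% lower. By label, 4 of the 5 paralogs passed under shARID1A.2, 5 under shARID1A.4, 4 under shARID1B.2, and 3 each under shARID1B.3 and the combined labels. The shares of all tested genes that passed were 76.1%, 73.6%, 65.6%, 63.9%, 69.2% and 71.2% in the order in which the labels were listed. The family's counts, taken without regard to direction, were near these shares. All 6 comparisons share the same 3 Control libraries. CELF3 was the only paralog called in the same direction under all 6 labels.

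CELF3, a mainly neuronal member and the second most abundant here, rose under all 6 labels. Control libraries held 897, 898 and 884 normalised reads. The values were 2254, 2066 and 2294 under shARID1A.2, 2471, 2542 and 2436 under shARID1A.4, 1619, 1643 and 1580.2 under shARID1B.2, and 1945, 2033 and 1888 under shARID1B.3. Under the combined labels they were 1392, 1493 and 1535 for shARID1A/B.2.3, and 1528, 1526 and 1514 for shARID1A/B.4.2. Every library with an ARID1 hairpin was above every Control library, and those labelled shARID1A were the highest.

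On the value + 1 scale, CELF3 was 2.46, 2.78, 1.81, 2.19, 1.65 and 1.70 times its Control level, the log2 difference under each label had a standard error of 0.04, and the largest of the 6 adjusted p-values was 1.76e-14 by limma. A rise under all 6 labels was seen in 6.52% of the tested genes, 1211 of 18584. Between 84.1% and 95.7% of genes had a lower difference than CELF3 under each label, so its rise was in the upper part of the distribution without being extreme. The labels shARID1A.4 and shARID1B.3 were the higher of their pairs, by 0.17 (adjusted p = 3.04e-04) and 0.28 (adjusted p = 8.27e-07) on the log2 scale, and the first of these lost its call with scaling to total reads (-0.02 for shARID1A.2 against shARID1A.4, adjusted p = 0.615). Contrasts within a label had 75.8%, 66% and 74.9% of all genes called. Under shARID1A/B.2.3 and shARID1A/B.4.2 the difference was -0.05 with an interval from -0.13 to 0.03, and their ranges overlapped, although scaling by total reads gave -0.20 (adjusted p = 9.80e-05).

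CELF5, another neuronal member with low counts, had the same direction. Control held 88.1, 97.4 and 94.5 normalised reads, shARID1A.2 held 179, 166 and 163, and shARID1A.4 held 212, 233 and 195. Values were 135, 115 and 124 under shARID1B.2, 118, 105 and 102 under shARID1B.3, 158, 175 and 128 under shARID1A/B.2.3, and 133, 147.5 and 109.6 under shARID1A/B.4.2. All 18 values lay above the highest Control value. Between 67.3% of tested genes, under shARID1B.3, and 92.7%, under shARID1A.4, had a lower difference than CELF5, so its rise was not extreme. CELF5 rose under 5 labels, by 0.85, 1.18, 0.41, 0.70 and 0.46 on the log2 scale with a standard error of 0.12. Under shARID1B.3 the difference of 0.21 did not pass (95% interval -0.04 to 0.46, adjusted p = 0.128). CELF5 was lower by 0.33 under shARID1A.2 than under shARID1A.4 (adjusted p = 0.0162), which became -0.18 (adjusted p = 0.174) with scaling to total reads. No difference passed between the conditions of the other labels, with intervals of -0.05 to 0.45 for shARID1B and -0.01 to 0.49 for shARID1A/B. With that scaling, however, the shARID1B difference was 0.31 and passed (adjusted p = 0.0253).

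CELF1, the ubiquitous member that opposes MBNL1 on several muscle exons, rose under 5 of 6 labels by less than CELF3. Its Control values were 7235, 7326 and 7382. They were 9638, 10045 and 9996 under shARID1A.2, 10916, 10902 and 10794 under shARID1A.4, 7092, 6859 and 6948 under shARID1B.2, and 8449, 8565 and 8784 under shARID1B.3. The combined labels gave 9182, 9550 and 9493 for shARID1A/B.2.3, and 11815, 11338 and 11255 for shARID1A/B.4.2. No 2 labels overlapped, and the order from high to low was shARID1A/B.4.2, shARID1A.4, shARID1A.2, shARID1A/B.2.3, shARID1B.3, Control and shARID1B.2.

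Between conditions of 1 label, CELF1 was lower by 0.30 under shARID1B.2 than under shARID1B.3 (adjusted p = 1.97e-11). It was lower by 0.29 under shARID1A/B.2.3 than under shARID1A/B.4.2 (adjusted p = 4.51e-11). Its difference of -0.14 for shARID1A.2 against shARID1A.4 (adjusted p = 1.06e-05) turned to 0.01 (adjusted p = 0.557) with scaling to total reads.

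The rises of CELF1 were 0.44, 0.57, 0.23, 0.36 and 0.65 on the log2 scale, with a standard error of 0.02. For shARID1B.2 the difference was -0.07 (adjusted p = 0.0100), and it turned to 0.07 (adjusted p = 0.00718) when libraries were scaled to total reads, so its direction there depends on the scaling. That scaling moved the median difference of all genes to 0.19, 0.15 and 0.20 under shARID1A.2, shARID1B.2 and shARID1A/B.4.2, from 0.02, 0.01 and 0.02. It also raised the share of calls that were higher from 49.8% to 61.2%, from 48.1% to 63.0% and from 49.3% to 64.8% under these labels.

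CELF4, a neuronal member linked to seizures in mice, was lower or did not pass. Control values were 81.0, 68.3 and 81.1. Values of 66.5, 56.6 and 64.6 were found under shARID1A.2, 67.0, 58.3 and 50.9 under shARID1A.4, 52.5, 54.4 and 54.2 under shARID1B.2, and 43.8, 31.4 and 32.8 under shARID1B.3. The combined labels gave 83.0, 95.9 and 80.8 for shARID1A/B.2.3, and 56.5, 68.0 and 75.9 for shARID1A/B.4.2. Both combined labels overlapped Control, whereas libraries labelled shARID1A or shARID1B were all below its lowest value.

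CELF4 fell by 0.50 (adjusted p = 0.00624) under shARID1B.2 and by 1.08 (adjusted p = 1.29e-06) under shARID1B.3 on the log2 scale, with a standard error of 0.15. Under shARID1A.4 it fell by 0.39 (adjusted p = 0.0283), and that call was lost in 7 of 32 alternative settings. It was lost without Control replicate 1 or 3 (-0.35 and -0.34) and without shARID1A.4 replicate 2 or 3 (-0.38 and -0.29). It was also lost with upper-quartile scaling, with DESeq2 and with no filter on low counts. The differences of -0.29 under shARID1A.2, 0.17 under shARID1A/B.2.3 and -0.21 under shARID1A/B.4.2 did not pass. CELF4 was higher under shARID1B.2 than under shARID1B.3 by 0.58 (adjusted p = 0.00196), and higher under shARID1A/B.2.3 than under shARID1A/B.4.2 by 0.38 (adjusted p = 0.0320), the latter falling to 0.22 (adjusted p = 0.193) with scaling to total reads.

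CELF6, a member expressed in brain, kidney and testis, went in opposite directions under the 2 shARID1A labels. Control values were 36.4, 45.9 and 50.3. Under shARID1A.2 they were 111, 104 and 102, and under shARID1A.4 they were 26.2, 2.38 and 20.0, the middle one resting on 2 reads. Values were 42.0, 56.7 and 18.7 under shARID1B.2, 49.8, 23.8 and 19.9 under shARID1B.3, 24.3, 40.6 and 23.4 under shARID1A/B.2.3, and 90.2, 100.4 and 75.9 under shARID1A/B.4.2. The libraries labelled shARID1A.2 and shARID1A/B.4.2 were all above Control, those labelled shARID1A.4 all below it, and the other three labels overlapped it.

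CELF6 rose by 1.25 (95% interval 0.21 to 2.29, adjusted p = 0.0276) under shARID1A.2 and fell by 1.85 (adjusted p = 0.00205) under shARID1A.4 on the log2 scale. Without shARID1A.4 replicate 2 the latter was -0.91 (adjusted p = 0.0280). The rise under shARID1A.2 lost its call in 6 of 31 alternative settings. It was lost without Control replicate 1 (1.12) or without any 1 of the 3 shARID1A.2 libraries (1.22, 1.27 and 1.28). It was also lost with no filter on low counts and with limma without trend. Under shARID1A/B.4.2 the difference of 0.99 did not pass (adjusted p = 0.0813), but it passed in 7 of 31 alternative settings, with adjusted p-values of 2.02e-04 to 0.0447. These were a pseudocount of 5, scaling to total reads, upper-quartile scaling, edgeR, DESeq2, only the libraries compared, and leaving out shARID1A.4 replicate 2. The remaining differences were -0.29, -0.59 and -0.60 with intervals that held 0. Directly compared, CELF6 was 3.10 higher (2.06 to 4.14, adjusted p = 5.55e-06) under shARID1A.2 than under shARID1A.4, and the difference of shARID1A/B.2.3 against shARID1A/B.4.2 was -1.60 (adjusted p = 0.00639). The annotation places AC009690.1 and AC009690.3 over CELF6 on the same strand, the former with 4.17 to 56.5 normalised reads per library. Reads could have been divided between these genes and CELF6, and the CELF6 values are uncertain to that extent.

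**Figure D3:**
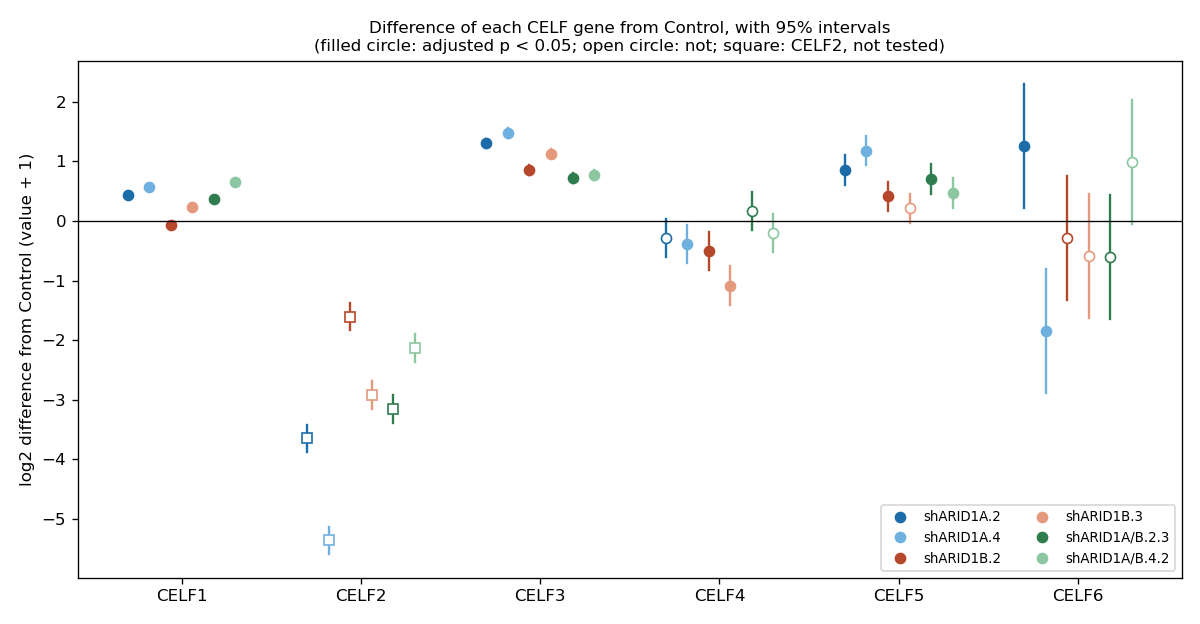
Log2 difference from Control of each CELF gene on the y axis, by gene on the x axis and coloured by labelled condition, with bars for 95% intervals. Filled circles passed at an adjusted p under 0.05, open circles did not, and the CELF2 squares, from -5.36 to -1.61, were not tested, whereas CELF3 lies between 0.72 and 1.47.

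Because CELF1 and CELF3 are the abundant members, the summed RNA of the family was higher with every ARID1 hairpin although CELF2 was lower. Per kilobase of exon, the 6 genes summed to 1003 to 1013 normalised reads in Control libraries and to a mean of 1516 and 1649.9 under shARID1A.2 and shARID1A.4. The sum was 1092 and 1304 under shARID1B.2 and shARID1B.3, and 1287 and 1512 under shARID1A/B.2.3 and shARID1A/B.4.2. The lowest library with an ARID1 hairpin, at 1078, was above the highest Control library.

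CELF2 made up 6.67% of this sum in Control and from 0.0940% under shARID1A.4 to 2.01% under shARID1B.2. CELF3 made up 20.0% in Control and from 22.7% under shARID1A/B.4.2 to 33.9% under shARID1A.4. The CELF1 share was 69.4% in Control, 61.0% to 63.1% under the shARID1A and shARID1B labels, and 70.0% and 72.6% under the combined labels. CELF4, CELF5 and CELF6 each stayed at or below 2.14% on average. These shares are a description that holds the CELF2 difference within it and were not tested.

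**Figure D4:**
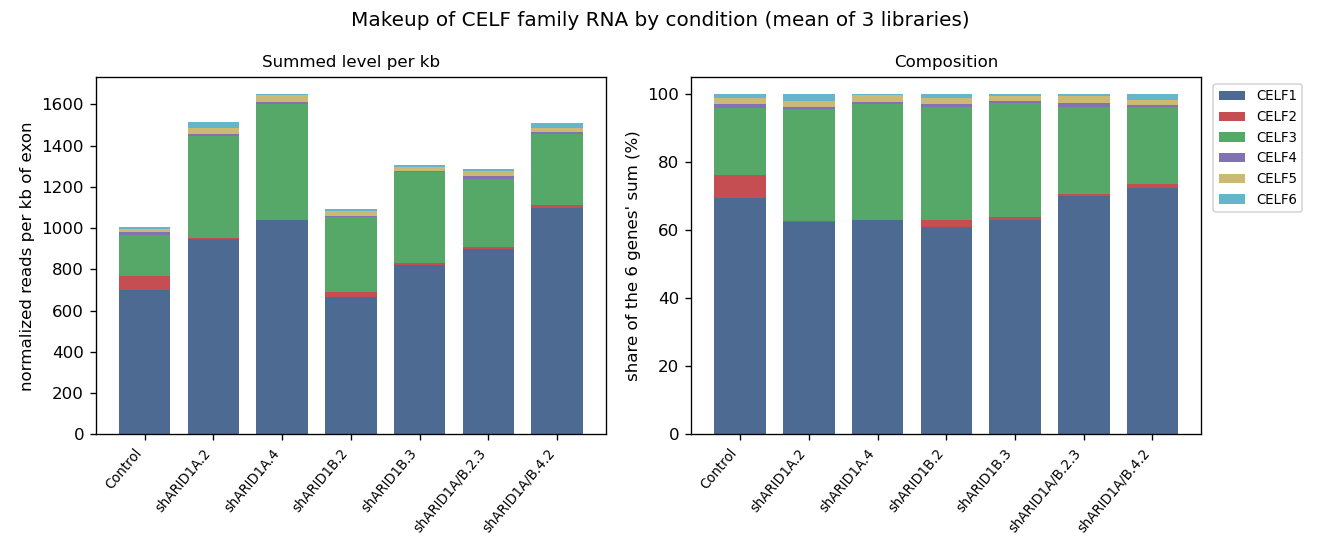
Family RNA by labelled condition on the x axis, as summed normalised reads per kilobase of exon (left y axis panel) and as percent of that sum (right), stacked by gene and averaged over 3 libraries. The Control column sums to 1008, the CELF2 band of 6.67% there shrinks to at most 2.01%, and the CELF3 band widens.

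The nearest protein-coding gene on each side of each CELF gene was examined, 12 in all, of which RAPSN next to CELF1 had too few reads to be tested. Of the 11 tested, 3 rose under all 6 labels and none fell under all 6, and the other 8 ran from -0.72 to 0.85 on the log2 scale. A rise under all 6 labels was found for 6.52% of all tested genes and a fall for 7.54%. GATA3, which encodes a transcription factor of the adrenergic neuroblastoma state, is the nearest protein-coding gene on one side of CELF2 at a distance of 2723194 bases, and it rose under all 6 labels by 0.12 to 0.61 on the log2 scale from a Control mean of 7378. It was the 1 of 8 adrenergic markers to do so, whereas ISL1 and HAND2, transcription factors of the same state, fell under all 6. USP6NL, a GTPase-activating protein of vesicle traffic, lies 117271 bases away on the other side. It fell under 4 labels and rose under shARID1A.4 and shARID1A/B.2.3, between -0.28 and 0.25, and its direction under shARID1A/B.4.2 turned from -0.15 to 0.04 with scaling to total reads. Neither neighbour moved by more than 1 on this scale, against -5.36 to -1.61 for CELF2. CELF2-AS1, annotated over CELF2 on the other strand, had at most 2.06 normalised reads in a library, and CELF2-AS2 was at 0 in all 21.

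At the other loci, PARP6 next to CELF6 rose under all 6 labels, by 0.21 to 0.97, whereas HEXA on its other side ranged from -0.72 to 0.35. NFIC, a transcription factor gene 17327 bases from CELF5, rose under all 6 labels by 0.43 to 1.09. NCLN, 15128 bases from CELF5 on its other side, rose under 4 labels by up to 0.57, fell by 0.22 under shARID1A.2, a call lost in 2 of 32 alternative settings, and did not pass under shARID1B.2. Next to CELF1, KBTBD4 rose under 5 labels, with values of 0.07 to 0.46 over the 6. Next to CELF4, KIAA1328 rose under 2 labels and fell under 2, from -0.54 to 0.85, and PIK3C3, the catalytic subunit of a lipid kinase of autophagy, ran from -0.18 to 0.22. The CELF3 neighbours SNX27 and MRPL9 ran from -0.27 to 0.35 and from -0.43 to 0.09. With scaling to total reads the direction turned for NCLN and MRPL9 under shARID1B.2, SNX27 under shARID1A.2, MRPL9 under shARID1A/B.2.3 and PIK3C3 under shARID1A/B.4.2. RIIAD1 overlaps CELF3 on the other strand and held 5.60 to 35.6 normalised reads per library against 884 to 2542 for CELF3. The protein-coding genes NDUFS3 and PTPMT1 overlap CELF1 on the other strand. Whether reads were shared at these overlaps was not tested.

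Other regulators of splicing and mRNA fate were listed to place the family among proteins of like function. Of 28 genes, 26 were tested, ESRP1 and KHDRBS2 having too few reads. Under shARID1A.2, 9 were higher and 14 lower, followed by 7 and 14 under shARID1A.4, 7 and 15 under shARID1B.2, 8 and 16 under shARID1B.3, 7 and 18 under shARID1A/B.2.3, and 9 and 14 under shARID1A/B.4.2. Of all tested genes, 37.9% were higher and 38.2% lower under shARID1A.2, 37% and 36.6% under shARID1A.4, 31.6% and 34% under shARID1B.2, 31.9% and 32% under shARID1B.3, 35.2% and 34% under shARID1A/B.2.3, and 35.1% and 36.1% under shARID1A/B.4.2. The median difference of the list was -0.37, -0.17, -0.18, -0.12, -0.30 and -0.24 in the same order, and that of all tested genes was 0.01 to 0.02.

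Of the list, 3 genes rose under all 6 labels and 7 fell under all 6. A rise under all 6 was seen in 6.52% of tested genes and a fall in 7.54%. SRRM3, an activator of neuronal microexons, rose by 0.77 to 1.64 from a Control mean of 424 ± 11.6 (SD, n = 3), and all 18 values, 709.6 to 1356, were above its Control range. RBFOX1, a neuronal splicing factor, rose by 0.44 to 1.20 from a Control range of 25.7 to 41.1, but under shARID1A/B.4.2 the call (adjusted p = 0.0473) was lost in 18 of 32 alternative settings, with values down to 0.30 without shARID1A/B.4.2 replicate 1. MSI2, a translational regulator of progenitor cells, rose by 0.07 to 0.50, and its smallest rise, under shARID1A/B.4.2, lost its call without Control replicate 2 (0.07) and without shARID1A/B.4.2 replicate 1 or 3 (0.05 and 0.06).

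The muscleblind-like genes MBNL2 and MBNL3, whose products oppose CELF proteins at shared exons, were among the 7 that fell. KHDRBS1 lost its call under shARID1B.2 and shARID1B.3 in 2 and 1 of 32 alternative settings. MBNL2 differed by -1.45 to -0.11 from a Control mean of 4391 ± 111, and its difference under shARID1B.2 turned to 0.03 with scaling to total reads. MBNL3 differed by -1.47 to -0.29 from 2372 ± 56.3. MBNL1 fell under 5 labels, by up to 1.63 on the log2 scale, and rose by 0.14 under shARID1B.3. ELAVL1 and the neuronal ELAVL4, both stabilisers of AU-rich mRNAs, differed by -0.70 to -0.19 and by -0.96 to -0.47. TIA1, a stress granule protein, differed by -1.05 to -0.22, the signalling-linked splicing factor KHDRBS1 by -0.92 to -0.09, and the repressor of neuronal exons PTBP1 by -0.48 to -0.08. The PTBP1 difference under shARID1B.3 (-0.08) lost its call in 4 of 32 alternative settings. These were scaling to total reads, upper-quartile scaling, edgeR, and leaving out shARID1B.3 replicate 3 (-0.05).

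**Figure D5:**
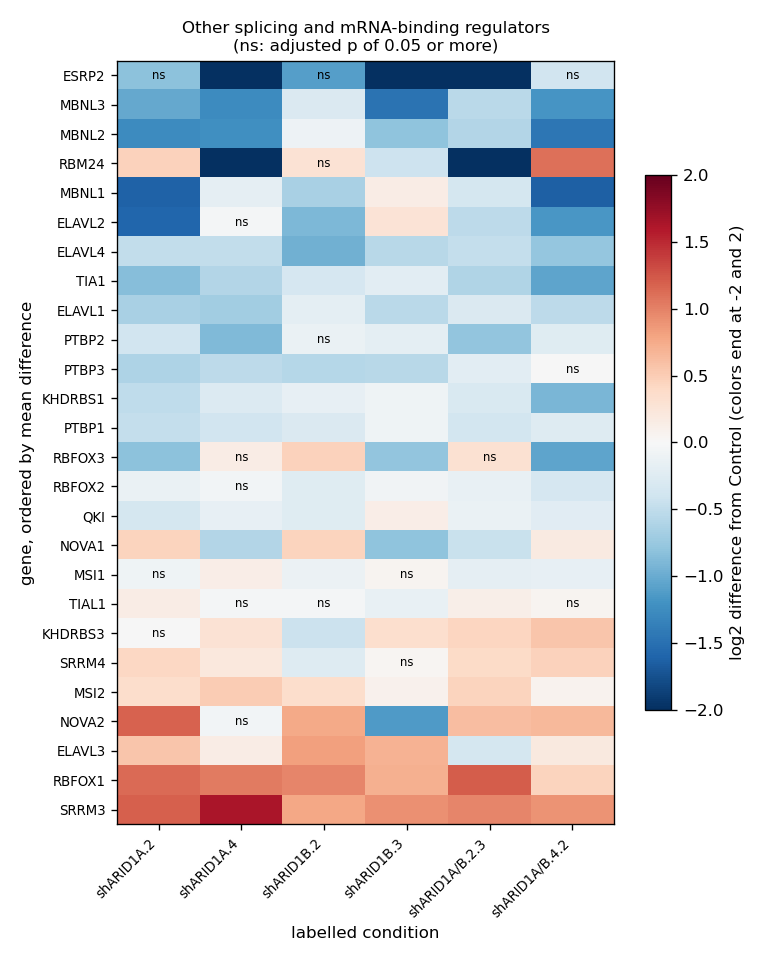
Log2 difference from Control of 26 other splicing and mRNA-binding regulators (rows, ordered by mean difference) under 6 labelled conditions (columns), with blue for lower, red for higher and ns for an adjusted p of 0.05 or more. MBNL3 is blue throughout, SRRM3 is red throughout, and the colours end at -2 and 2.

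Transcripts known as CELF-bound or CELF-spliced were listed as well, although gene sums do not measure exon inclusion. Of 16 such genes 13 were tested, and 13, 11, 10, 9, 13 and 12 of them passed in the order in which the labels were listed. The numbers higher were 4, 6, 3, 4, 9 and 5 and the numbers lower 9, 5, 7, 5, 4 and 7, so no direction was shared. Among all tested genes 63.9% to 76.1% passed under a label, 31.6% to 37.9% higher and 32% to 38.2% lower. The median difference of the list was -0.34, 0.10, -0.29, -0.08, 0.33 and -0.26, against 0.01 to 0.02 over all tested genes. A rise under all 6 labels was found for 2 of the 13, MAPT and MAP2K7, and for 6.52% of all tested genes. MAPT, which encodes the microtubule protein tau and has CELF-regulated exons, rose under all 6 labels by 0.36 to 1.94 on the log2 scale, from 481.6 to 545 in Control to between 616 and 1999. MAP2K7, a kinase upstream of JNK with a CELF2-regulated exon in T cells, rose under all 6 by 0.33 to 0.80, from a Control mean of 867 ± 23.2. GRIN1, an NMDA receptor subunit, rose under 4 labels and ran from 0.15 to 1.51. TNNT2, cardiac troponin T and a classic CELF splicing target, ran from -2.50 under shARID1B.3 to 1.41 under shARID1A/B.2.3 from a Control mean of 67.5 ± 9.59.

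Genes whose values followed CELF2 over the 21 libraries were named as a description. Among 13674 genes with a mean of at least 50, the 5 with the highest Pearson correlation of log2 values were WDHD1, a replication fork protein, with 0.976, SESTD1 with 0.975, RNF152 with 0.974, the actin-associated PALLD with 0.971 and ARHGAP26 with 0.970. The most opposite were RTN2 with -0.976, the ATP synthase subunit ATP5PO with -0.968, the proteasome subunit PSMB4 with -0.968, B3GALNT2 with -0.967 and SYT5 with -0.967. WDHD1 had a Control mean of 3218 and 849 under shARID1A.4, whereas B3GALNT2 had 1277 and 5768. Within the family, the correlation with CELF2 was -0.90 for CELF3, -0.86 for CELF5, -0.68 for CELF1, 0.19 for CELF4 and 0.35 for CELF6. CELF2 was chosen for its decrease from Control, so genes above Control under most labels tend towards negative values here. The share of all genes with correlations of this size is not given. The 21 points share 7 labels and the depth factor of each library, so they are not independent.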

How the data were processed

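The authors sequenced stranded poly(A) RNA from SK-N-BE(2) cells, and per the submitters' processing notes used STAR 2.5.3a, RSEM 1.3.0, DESeq2 1.26.0 and GRCh38. The deposited values are a normalised signal, which the authors had divided by 1 factor per library (0.841 to 1.29). Each value came out as a whole number of reads within 0.1 after removing that factor, in 100% of cases, and depth was 27954334 to 41077638 reads. The strand setting of the counting is not given in the sources used here. Groups were taken from the labels.

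Differences were fitted with limma 3.58.1 (trend) in R 4.3.3 on log2(value + 1) over 21 libraries in 7 conditions, for the 18584 genes kept by the filterByExpr function of edgeR 4.0.16, with Benjamini-Hochberg adjustment over all of them and calls under 0.05. CELF2 against Control was not tested. Alternatives were pseudocounts of 0.5 and 5, filters, scaling to total reads, upper-quartile scaling, edgeR and DESeq2 1.42.0 on the recovered reads, no trend, only the libraries compared, a replicate block, and leaving out each library. The script was tested on simulated data. Files of the authors' own comparisons were not used. Replicate pairs differed by more than counting noise, their chi-square divided by degrees of freedom running from 1.55 to 4.26 over 21 pairs. P-values measure the spread between libraries of the same label. Whether each library had its own transduction is not known here, so they may not cover the spread between transductions.

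The members and lists were chosen with earlier results of these data known. Named genes were the 6 members in every library, ARID1A and ARID1B, neighbours at the CELF loci, list genes called in the same direction under all 6 labels (or, up to 4, those with the largest mean differences), and the 5 genes most like and most opposite to CELF2 among genes with a mean of at least 50. MBNL1 was named after its values were seen. An adrenergic marker of the original list is not reported here. Exon lengths and positions were from GENCODE 29 and start windows from RefSeq on GRCh38.p14, and 58496 of 60728 identifiers matched without version numbers.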

Additional observations from a re-analysis of the deposited data

Results flagged for a closer look

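Several CELF genes differed between the 2 conditions of 1 label, tested directly with limma. Each value is the log2 difference of the first condition minus the second, and most genes were called in these contrasts. Between shARID1A.2 and shARID1A.4 (75.8% of genes called) the values were -0.14 for CELF1, 1.71 for CELF2, -0.17 for CELF3, -0.33 for CELF5 and 3.10 for CELF6. Between shARID1B.2 and shARID1B.3 (66% called) they were -0.30 for CELF1, 1.31 for CELF2, -0.28 for CELF3 and 0.58 for CELF4. Between shARID1A/B.2.3 and shARID1A/B.4.2 (74.9% called) they were -0.29 for CELF1, 0.38 for CELF4 and -1.60 for CELF6. CELF2 differed by -1.03 in this contrast, with ranges that did not overlap. That value is a description with no test, because these libraries entered the choice of CELF2. CELF6 is the one whose 3 libraries lay above Control in shARID1A.2 and below it in shARID1A.4. With scaling to total reads or upper-quartile scaling only 1 of the 5 paralogs, CELF6, was called between shARID1A.2 and shARID1A.4, and the CELF1 value there became 0.01 and -0.04.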

How the results depend on the processing

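The 3 tests of CELF2 between labels kept their direction and call in all 32 alternatives. The libraries compared may have entered the choice of CELF2, and a change of setting does not remove that. The counts of paralogs called kept within 1.5 times their main value, except that between shARID1A.2 and shARID1A.4 4 paralogs were called in the reported fit and 1 with scaling to total reads and 1 with upper-quartile scaling. With each library left out in turn, that count ran from 3 to 4, and for CELF2 the shARID1A against shARID1B difference ran from -2.30 to -2.20. Direction turned in some single values, and the cause was not tested beyond the scaling itself. With scaling to total reads and with upper-quartile scaling, CELF1 under shARID1B.2 became 0.066 and 0.048, USP6NL under shARID1A/B.4.2 became 0.041 and 0.016, HEXA under shARID1B.2 became 0.050 and 0.032, NCLN under shARID1B.2 became 0.036 and 0.018, and MBNL2 under shARID1B.2 became 0.028 and 0.0098. Under the same scalings SNX27 under shARID1A.2 became 0.022 and 0.032, MRPL9 under shARID1B.2 became 0.060 and 0.042 and under shARID1A/B.2.3 0.031 and 0.070, and PIK3C3 under shARID1A/B.4.2 became 0.079 and 0.054. KIAA1328 under shARID1B.3 became 0.015 with upper-quartile scaling alone. MRPL9 under shARID1A/B.2.3 was 0.016 in edgeR, and over the libraries left out it ran from -0.026 to 0.028 there and from -0.022 to 0.038 under shARID1A.2. CELF6 under shARID1B.2 ran from -0.62 to 0.15 over the libraries left out, the highest value without shARID1B.2 replicate 3.

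No shared effect of the replicate number was detected, although whether libraries of the same number were made together is not known here. The correlation of deviations between libraries of the same number in different conditions ran from -0.088 to 0.053 over 63 pairs, none above 0.1. With the replicate block the counts of paralogs called were 4, 5, 4, 3, 3 and 3, as without it, and CELF2 differed by -2.24 between the shARID1A and shARID1B labels. Low read numbers limit CELF4, CELF5 and CELF6 most, and 1 CELF6 value rests on 2 reads.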
